A study of Homo sapiens with 6 samples.

Results

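The genes described here encode the nuclear subunits of the 5 complexes of oxidative phosphorylation. They were chosen by symbol alone. All probes were taken whose symbol begins with NDUFA, NDUFB, NDUFC, NDUFS, NDUFV, UQCR or ATP5, or is SDHA, SDHB, SDHC or SDHD, or begins with COX4, COX5, COX6, COX7 or COX8 and goes on with further characters. NDUFAF names, which are assembly factors, and pseudogenes were left out. This gave 77 genes with 104 probes, of 18852 named genes and 48803 probes on the array. Of these genes 71, with 94 probes, were above background and were tested. They are 32 of 33 listed genes of complex I, 3 of 3 of complex II, 8 of 8 of complex III, 11 of 16 of complex IV and 17 of 17 of complex V. SDHB, UQCRFS1, NDUFA4, NDUFA4L2, COX7A2L and ATP5F1E were not analysed here.

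Transcripts were measured on single-colour Illumina bead arrays in IGROV-1, an established human ovarian carcinoma line. The 3 CpG-ODN samples had received the phosphorothioate oligonucleotide ODN1826 at 10 µM for 24 h, and the 3 saline samples had received saline, with no time stated for it. CpG-ODN is synthetic DNA with unmethylated CpG motifs, the kind of DNA that Toll-like receptor 9 is known to bind. Whether replicates came from separate cultures is not stated, and p-values therefore cover the spread among these arrays alone, which may be technical. In bulk RNA, fewer cells with a transcript and less of it per cell cannot be told apart. The single question of the design was how the transcripts of the CpG-ODN samples differed from those of the saline samples.

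In the inner mitochondrial membrane, complex I takes electrons from NADH and complex II takes them from succinate, and both hand them to ubiquinone. Complex III passes them on to cytochrome c and complex IV to oxygen, while complexes I, III and IV pump protons out of the matrix. Complex V, the ATP synthase, lets the protons flow back and makes ATP. Most subunits are encoded in the nucleus, and the nuclear respiratory factor NRF1, ETS-family factors such as GABP, and YY1 are known to act on many of their promoters.

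To show the regulatory DNA in front of these genes, the 250 bases before the transcription start are printed for 1 member of each complex: the one with the smallest unadjusted p among those with a single start listed by RefSeq. Coordinates are those of GRCh38.p14 in RefSeq, and each sequence runs 5′ to 3′ along its gene. Capitals mark a match on either strand to the 10-letter NRF1 motif (seen in SDHD), CCGGAAG (ETS), AAGATGGC (YY1) or GGGCGG (the GC box, bound by SP-family factors). The members are NDUFA10 (chr2:240025343-240025592 on the minus strand), SDHD (chr11:112086623-112086872 on the plus strand), UQCRH (chr1:46303448-46303697 on the plus strand), COX5A (chr15:74938074-74938323 on the minus strand) and ATP5PO (chr21:33915805-33916054 on the minus strand).
NDUFA10: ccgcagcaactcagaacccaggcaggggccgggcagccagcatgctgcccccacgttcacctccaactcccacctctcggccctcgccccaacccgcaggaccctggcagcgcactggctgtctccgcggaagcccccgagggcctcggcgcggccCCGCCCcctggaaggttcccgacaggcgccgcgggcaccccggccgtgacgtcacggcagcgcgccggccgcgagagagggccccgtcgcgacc
SDHD: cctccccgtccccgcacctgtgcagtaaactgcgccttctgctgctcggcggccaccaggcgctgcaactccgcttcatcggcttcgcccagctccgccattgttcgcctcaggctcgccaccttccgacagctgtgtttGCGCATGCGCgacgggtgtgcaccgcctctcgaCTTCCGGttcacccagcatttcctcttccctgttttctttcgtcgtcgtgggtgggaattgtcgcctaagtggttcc
UQCRH: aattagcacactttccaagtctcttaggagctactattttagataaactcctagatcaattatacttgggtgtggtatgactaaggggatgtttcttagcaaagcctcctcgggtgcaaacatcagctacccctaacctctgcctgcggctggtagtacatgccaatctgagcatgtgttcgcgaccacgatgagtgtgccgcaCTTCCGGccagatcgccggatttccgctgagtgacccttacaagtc
COX5A: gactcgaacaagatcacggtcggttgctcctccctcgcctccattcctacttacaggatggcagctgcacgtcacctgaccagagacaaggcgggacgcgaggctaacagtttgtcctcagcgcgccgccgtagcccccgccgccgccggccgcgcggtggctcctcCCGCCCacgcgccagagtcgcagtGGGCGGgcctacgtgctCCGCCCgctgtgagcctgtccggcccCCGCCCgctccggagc
ATP5PO: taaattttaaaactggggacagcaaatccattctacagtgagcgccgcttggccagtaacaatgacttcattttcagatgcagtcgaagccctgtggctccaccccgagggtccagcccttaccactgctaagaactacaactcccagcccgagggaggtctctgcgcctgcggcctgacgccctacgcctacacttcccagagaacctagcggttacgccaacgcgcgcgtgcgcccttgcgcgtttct
SDHD held 1 NRF1 match that begins 110 bases before the start and 1 ETS match, on the opposite strand, 77 bases before it. UQCRH held 1 ETS match 46 bases before the start. NDUFA10 held 1 GC box and COX5A held 4. ATP5PO had none in the printed bases, and its YY1 and GC-box matches lay 39 and 28 bases into the transcript.

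Over the searched window of 250 bases before to 50 after the start, 64 of the 77 members had 76 listed promoters. An ETS match was present in 21 of these 76 promoters (27.6%), against 16.7% of 13247 promoters of all genes tested and 10.3% of all 35116 promoters in the table. A YY1 match was present in 11 (14.5%), against 4.69% and 2.89%. An NRF1 match was present in 4 (5.26%), against 1.98% and 1.24%, and a GC box in 44 (57.9%), against 64.8% and 45.0%. ETS and YY1 matches can share letters, and 0 member promoters held such an overlap. By complex, ETS matches were in 7 of 17 promoters of complex V, 5 of 14 of complex IV, 3 of 6 of complex III and 5 of 37 of complex I. These are counts of letters and no measure of binding. The YY1 transcript was detected on all 6 arrays and lay at a log2 fold change (CpG-ODN minus saline) of −0.01 ± 0.18 (SE), and that of the ETS factor GABPA at −0.17 ± 0.29. The gene NRF1 was detected on 2 arrays at most and was not tested. Measured members with an ETS match had a median log2 fold change of 0.05 over 20 genes, and those without one 0.07 over 39. The 10 members with a YY1 match had a median of −0.04 and the 49 without one 0.07. With an NRF1 match the median was 0.12 over 4 members and without one 0.05 over 55, and with a GC box it was 0.08 over 36 and without one 0.05 over 23.

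Of the 48803 probes on an array, between 17142 and 18790 were detected. Of 9 epithelial and ovarian carcinoma markers 8 were measured and 7 were detected on all 6 arrays, KRT8, KRT18, KRT19, EPCAM and PAX8 among them, while WT1 was detected on 2 arrays at most. PTPRC and CD3E of leukocytes, CDH5 of endothelium, COL1A2 of fibroblasts, CKM of muscle and RBFOX3 of neurons were detected on 0 arrays. Other genes on those marker lists were measured: LYZ and CD68 of 4 leukocyte genes, PECAM1 and VWF of 3 endothelial, DCN of 3 fibroblast, ACTA1 of 3 muscle and SNAP25 of 2 neuronal genes. CpG-ODN 1 and CpG-ODN 2 stood apart from the rest. Correlations over all genes were 0.990 to 0.992 between saline arrays, while CpG-ODN 1 correlated with CpG-ODN 2 at 0.965, and the other pairs of CpG-ODN arrays at 0.979 and 0.984. CpG-ODN 1 had the highest mean intensity (712.7) and CpG-ODN 2 the lowest (592.0), against 605.7 to 650.2 on the others. Values without 1 of them are therefore given below for all members, for each complex and for some of the named members. Members not followed in this way below moved as far or farther. Without CpG-ODN 1 the log2 fold change of NDUFS1 went from 0.09 to −0.34 and that of ATP5IF1 from 0.06 to 0.41. Without CpG-ODN 2 that of UQCR11 went from 0.06 to −0.30. Of the 71 log2 fold changes of members, none of them called, 23 changed sign without CpG-ODN 1, 14 without CpG-ODN 2 and 5 without CpG-ODN 3.

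No subunit gene of any complex passed the test between CpG-ODN and saline. With limma, 0 of the 71 members passed at an adjusted p under 0.05 (Benjamini-Hochberg), where 0% of all 11040 genes were called, and each member had an adjusted p of 1.00. At an unadjusted p under 0.05 there was 1 member, NDUFA10, or 1.41%, against 3.58% of all genes, and against 1.94% that did so on the higher side. With the mean of the tested probes of a gene in place of the brightest, 0 members did so, against 377 of all genes. The values lay close to 0: the log2 fold changes of the 71 members ran from −0.26 for NDUFV1 to 0.49 for NDUFC1. For 69 of the 71 members (97.2%) the 95% interval stayed within 2-fold either way, and for 46 (64.8%) within 1.5-fold, against 95.4% and 51.7% of all genes. Larger changes than these intervals hold were thus not seen, while smaller ones could not be resolved with 3 arrays a group.

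**Figure D1:**
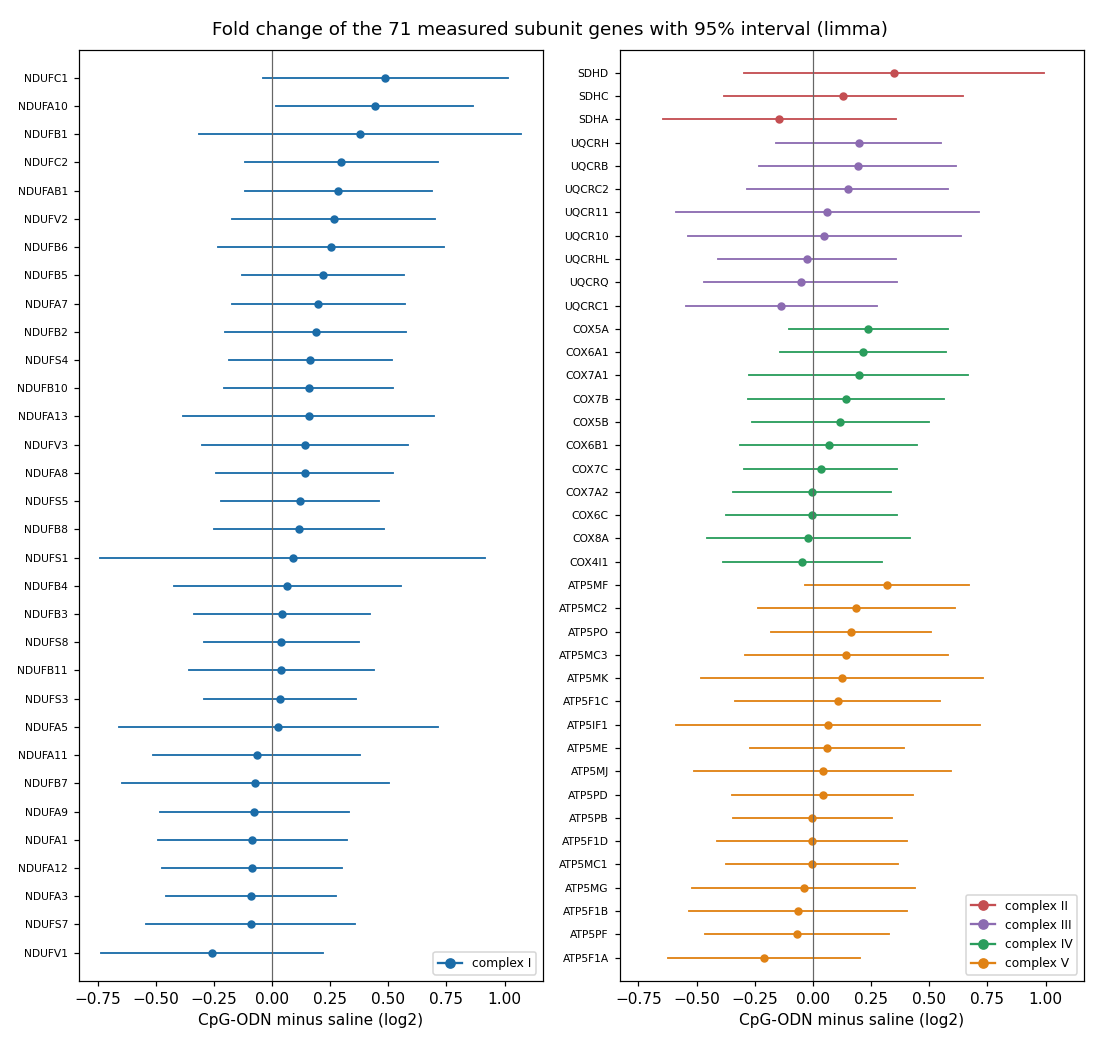
Log2 fold change (CpG-ODN minus saline, horizontal axis) of each of the 71 measured subunit genes, with its 95% interval from limma over 3 arrays a group, ordered by size within complex. Only the interval of NDUFA10, from 0.02 to 0.87, leaves out 0, and every adjusted p was 1.00.

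The uncalled fold changes leaned to the higher side, and the lean was small without CpG-ODN 2. Of the 71 members 48 had a higher mean in CpG-ODN (67.6%, against 48.8% of all genes), and their median log2 fold change was 0.07, where that of all genes was −0.01. Without CpG-ODN 2 the split was 38 higher and 33 lower with a median of 0.01, and without CpG-ODN 1 it was 59 and 12 with a median of 0.11. When arrays were instead scaled to equal medians, 66 of the 71 were higher, with a median of 0.14. On that scale 5405 of all 11040 genes were higher, with a median of −0.00. The median level of the members was 12.6, against 8.68 for all genes, and the part of brightness in this count was not tested. With quantile normalization and all 6 arrays, the median was 0.12 for complex I (24 of 32 higher) and 0.13 for complex II (2 of 3). It was 0.06 for complex III (5 of 8), 0.07 for complex IV (7 of 11) and 0.04 for complex V (10 of 17). Without CpG-ODN 2 the medians of complexes II, III, IV and V turned to −0.07, −0.09, −0.02 and −0.04, and that of complex I shrank to 0.06. Without CpG-ODN 1 the medians of complexes I to V were 0.13, 0.07, 0.15, 0.13 and 0.10, with 27 of 32, 2 of 3, 6 of 8, 11 of 11 and 13 of 17 genes higher. With equal medians they were 0.18, 0.14, 0.11, 0.18 and 0.10, with 30, 2, 7, 11 and 16 genes higher. With array weights, which let CpG-ODN 3 count most, complex V turned to −0.03.

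The 3 CpG-ODN arrays did not carry the subunit genes alike. Relative to the saline mean, the median member lay at −0.06 on CpG-ODN 1, at 0.21 on CpG-ODN 2 and at 0.04 on CpG-ODN 3, while the 3 saline arrays lay between −0.02 and 0.01 and the median of all genes between −0.01 and 0.01 on every array. On CpG-ODN 2, 51 of the 71 members (71.8%) were above all 3 saline arrays and 6 (8.45%) below them, against 34.6% and 35.9% of all genes. On CpG-ODN 1 there were 24 above (33.8%) and 31 below (43.7%), against 33.2% and 35.3%. On CpG-ODN 3 there were 26 above (36.6%) and 9 below (12.7%), against 24.7% and 24.8%. Complexes I, III, IV and V all had their highest median on CpG-ODN 2, at 0.23, 0.27, 0.20 and 0.21, and complex II had its own at 0.15 on CpG-ODN 3, over 3 genes. With equal medians in place of quantile normalization, CpG-ODN 1 and CpG-ODN 2 both had a member median of 0.26, where that of all genes was 0.27 on the first and −0.21 on the second. The place of the members among all genes was thus the same on either scale for CpG-ODN 1, near the median, and above it for CpG-ODN 2.

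**Figure D2:**
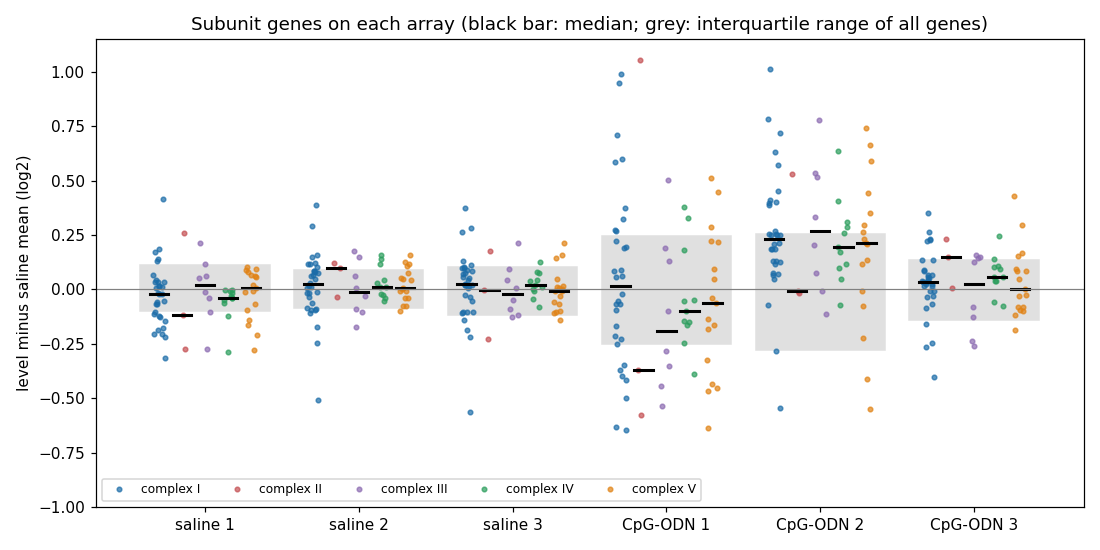
Level of each measured subunit gene minus its mean over the 3 saline arrays (log2, vertical axis) on each of the 6 arrays, coloured by complex, with the median of each complex as a black bar and the interquartile range of all 11040 genes in grey. The bars of complexes I, III, IV and V sit between 0.20 and 0.27 on CpG-ODN 2 and within 0.06 of 0 on CpG-ODN 3.

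Many single members lay on opposite sides of the saline values on CpG-ODN 1 and CpG-ODN 2. Of the 71, 24 (33.8%) were below all saline arrays on CpG-ODN 1 and above them on CpG-ODN 2, where 14.8% of all genes were, and 3 (4.23%) showed the reverse, where 14.0% of all genes did. ATP5IF1, the inhibitor that blocks reverse action of the ATP synthase, read 11.24, 11.37 and 11.52 on saline arrays 1 to 3 and 10.74, 12.04 and 11.54 on CpG-ODN arrays 1 to 3 (normalized log2 level). The saline values of ATP5IF1 thus lay inside the span of the CpG-ODN values. UQCR10, a small subunit of complex III, read 10.12, 9.98 and 10.37 in saline and 9.62, 10.69 and 10.30 in CpG-ODN. The reverse pattern was seen in ATP5F1B, ATP5MC3 and NDUFA5. Within a group, the median SD of a member was 0.10 log2 units over the saline arrays and 0.27 over the CpG-ODN arrays, against 0.15 and 0.26 over all genes. The CpG-ODN SD was the larger in 64 of the 71 members (90.1%) and in 74.9% of all genes. The lowest 75th percentile of intensity (186.7, against 207.6 to 221.3) and the lowest count of detected probes (17142) were those of CpG-ODN 2; the part of either in these values was not tested.

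Complex I, which oxidises NADH, had the members at both ends of the range. Its measured core subunits, which carry the flavin and the iron-sulphur clusters, had a median log2 fold change of 0.04 over 6 genes. Its accessory subunits had one of 0.14 over 26 genes, 20 of them higher (76.9%, against 48.8% of all genes). Relative to the saline mean, the accessory median lay at 0.00, 0.25 and 0.04 on CpG-ODN 1, 2 and 3. The core median lay at 0.03, 0.07 and 0.00 on these arrays, so the 2 medians were far apart on CpG-ODN 2 alone. NDUFV1 binds the flavin that takes the electrons from NADH. NDUFV1 read 11.62, 11.39 and 11.90 in saline and 11.01, 11.57 and 11.57 in CpG-ODN, a log2 fold change of −0.26 ± 0.21 (SE), and its value on CpG-ODN 1 was the lowest of the 6. Without that array the log2 fold change of NDUFV1 was −0.07, and that of NDUFV2 was 0.10. NDUFV2, its iron-sulphur partner, read from 11.70 to 12.06 in saline and 12.52, 12.05 and 11.99 in CpG-ODN, or 0.26 ± 0.19, with CpG-ODN 1 the highest. NDUFS1 lay near background and spread widely, from 5.74 to 6.69 in saline and from 5.90 to 7.25 in CpG-ODN. The cluster-bearing subunits NDUFS7 and NDUFS8 and the subunit NDUFS3 lay at −0.09, 0.04 and 0.03. NDUFS3 was among the steadiest members, with 12.86 ± 0.05 (SD, n = 3) in saline and 12.90 ± 0.05 in CpG-ODN.

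Among the accessory subunits of complex I, NDUFA10 had the smallest p and NDUFC1 the largest fold change. NDUFA10 read 8.68, 8.87 and 8.86 in saline and 8.99, 9.59 and 9.15 in CpG-ODN. The groups of NDUFA10 did not overlap, and its fold was 1.36, or 0.44 ± 0.19 on the log2 scale (limma, unadjusted p = 0.0425, adjusted p = 1.00). A further probe of NDUFA10 gave −0.07, so the difference was not shared by the probes of the gene. In saline that further probe was the brighter, at a mean of 8.84 against 8.80. The probe shown was brightest only through its CpG-ODN values, at a mean of 9.24 against 8.77. Its p and its lack of overlap are thus not independent of the choice of probe. NDUFC1 read 10.65, 10.69 and 10.51 in saline and 11.61, 11.07 and 10.65 in CpG-ODN, or 0.49 ± 0.23, and its value on CpG-ODN 3 lay among the saline values. Without CpG-ODN 1 the log2 fold change of NDUFC1 was 0.24, and that of NDUFA10 was 0.27 without CpG-ODN 2. NDUFAB1, the mitochondrial acyl carrier protein, read 13.23, 13.37 and 13.25 against 13.87, 13.50 and 13.34, with CpG-ODN 3 inside the saline range. NDUFB5 was the other member of complex I whose groups did not overlap, at 0.22 ± 0.15, with 12.61, 12.48 and 12.33 against 12.74, 12.73 and 12.61. Its lowest CpG-ODN value and its highest saline value were equal to 2 decimals. NDUFS6 passed detection on a single saline array (1 of 6 in all) and was not tested.

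Complex II, succinate dehydrogenase, links the respiratory chain to the citric acid cycle. Its membrane anchor SDHD read 11.47, 11.18 and 10.99 in saline and 12.27, 11.20 and 11.22 in CpG-ODN, or 0.35 ± 0.29. Only CpG-ODN 1 stood above the saline values of SDHD, and without it the log2 fold change was −0.00. The flavoprotein SDHA, which holds the active site, lay at −0.14 ± 0.22 (95% interval −0.65 to 0.36) and at −0.29 on its other probe, and on CpG-ODN 1 it was 0.58 below the saline mean. Probes of SDHA pseudogenes stand on the same array, so signal shared between these near copies cannot be told apart. Without CpG-ODN 1 SDHA lay at 0.07. The other anchor, SDHC, lay at 0.13 ± 0.23, and its further probe gave 0.23. Without CpG-ODN 2 SDHC lay at −0.07, and without CpG-ODN 1 at 0.38. The intervals of all 3 genes were inside 2-fold and none was inside 1.5-fold.

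Complex III, which reduces cytochrome c, showed small differences in all 8 genes chosen by symbol and measured, from −0.14 to 0.20. UQCRH, the hinge protein, read 14.31, 14.56 and 14.36 in saline and 14.54, 14.74 and 14.54 in CpG-ODN, or 0.20 ± 0.16, with 0.18 on its other probe, and the groups overlapped. UQCRHL, a near-identical copy of UQCRH, lay at −0.03, and signal may be shared between the pair. The core proteins lay on different sides of 0, with UQCRC1 at −0.14 ± 0.18 and UQCRC2 at 0.15 ± 0.19. UQCRC1 was tight in saline (11.05 ± 0.01, SD, n = 3) and spread in CpG-ODN, at 10.61, 10.94 and 11.20. Without CpG-ODN 1 the core proteins lay at 0.02 (UQCRC1) and −0.03 (UQCRC2). UQCRB and UQCRQ, which contact the ubiquinone-binding part of the complex, lay at 0.19 and −0.05, and UQCR10 and UQCR11 at 0.05 and 0.06.

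Complex IV, cytochrome c oxidase, was the complex with the narrowest intervals, inside 1.5-fold for 10 of its 11 measured members. COX5A, a matrix-facing subunit, read 13.57, 13.62 and 13.54 in saline and 13.96, 13.77 and 13.72 in CpG-ODN, or 0.24 ± 0.15. COX6A1, the form of its subunit outside muscle, read 12.27, 12.34 and 12.32 against 12.49, 12.72 and 12.37, or 0.22 ± 0.16. In both genes all 3 CpG-ODN arrays lay above all 3 saline arrays, though neither passed. Over all complexes this held for 6 of the 71 members (8.45%), with 4.30% of all genes, and the reverse held for 0 members, with 5.05% of all genes; in either direction it was 8.45% of members and 9.35% of all genes. COX4I1 and COX7C, which are expressed in all tissues, lay at −0.05 and 0.03, and COX6C, COX7A2 and COX8A at −0.01, −0.00 and −0.02. COX7C was the steadiest, with 14.87 ± 0.01 (SD, n = 3) in saline and 14.91 ± 0.08 in CpG-ODN.

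Complex IV is also the complex with tissue-specific forms of its subunits, and most of these were not detected. COX4I2 (known from lung), COX6A2 (heart and skeletal muscle), COX6B2, COX7B2 and COX8C (testis) were detected on 0 of 6 arrays. Their widely expressed counterparts COX4I1, COX6A1, COX6B1, COX7B and COX8A were detected on all 6 arrays. Another tissue form, COX7A1, known from heart and skeletal muscle, was detected on all 6 arrays at 7.47 ± 0.12 (SD, n = 3) in saline and 7.66 ± 0.39 in CpG-ODN. Its values were 7.35, 7.58 and 7.47 against 7.37, 8.10 and 7.52, and only CpG-ODN 2 was above the saline values, without which the log2 fold change of COX7A1 was −0.02. Of the muscle markers CKM was detected on 0 arrays, MB on 1 and ACTA1 on all 6.

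Complex V held the member with the largest fold change outside complexes I and II. ATP5MF, a small subunit of the membrane part, read 13.30, 13.44 and 13.44 in saline and 13.84, 13.74 and 13.55 in CpG-ODN. The groups of ATP5MF did not overlap, the fold was 1.25, or 0.32 ± 0.16 on the log2 scale (limma, unadjusted p = 0.0730, adjusted p = 1.00), and the other probe of ATP5MF gave 0.37. ATP5PO, in the stalk that holds the head still, was the other member of complex V whose groups did not overlap, at 0.16 ± 0.15. Of the 4 measured ATP5F1 genes 1 was higher, with a median of −0.03. With equal medians, however, 16 of the 17 genes of complex V were higher, with ATP5F1A the 1 lower, where 5405 of all 11040 genes were higher. ATP5F1A, the alpha subunit of the catalytic head, read 14.59, 14.40 and 14.50 in saline and 14.44, 13.95 and 14.47 in CpG-ODN. Its log2 fold change was −0.21 ± 0.18, with −0.20 on its other probe. ATP5F1B, the catalytic beta subunit, read 15.08, 15.48 and 15.52 against 15.58, 14.95 and 15.36, or −0.06 ± 0.21. Both head subunits thus had their lowest value of all 6 arrays on CpG-ODN 2, and without it lay at −0.04 (ATP5F1A) and 0.11 (ATP5F1B). On that array the 5 small membrane subunits had a median of 0.35 above the saline mean and all 5 lay above it. ATP5MC1, ATP5MC2 and ATP5MC3, which encode the same proton-carrying c subunit, lay at −0.00, 0.19 and 0.14.

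**Figure D3:**
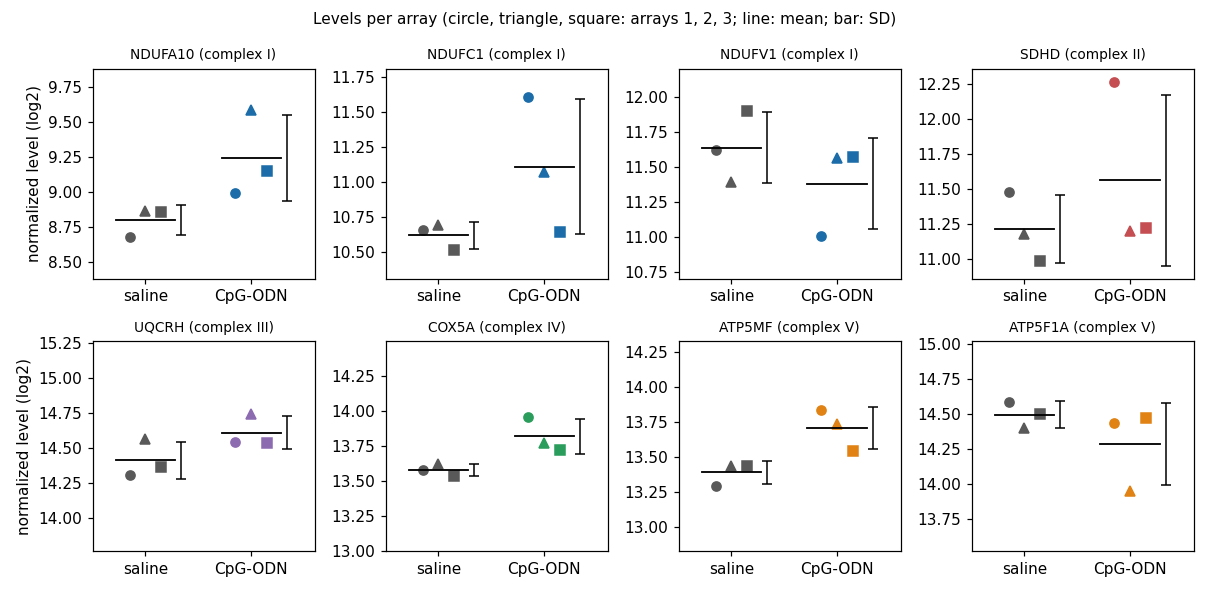
Normalized log2 level (vertical axis, each panel spanning 1.5 log2 units) of 8 subunit genes on the 3 saline and 3 CpG-ODN arrays, with the mean as a line and the SD as a bar. In NDUFA10, COX5A and ATP5MF the groups do not overlap, whereas SDHD and NDUFC1 are highest on CpG-ODN 1 and ATP5F1A is lowest on CpG-ODN 2.

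Several genes had more than 1 tested probe, which shows how far a value depends on the probe. Of 21 such member genes, 7 had probes on opposite sides of 0 (33.3%), against 1301 of 2814 such genes (46.2%) among all genes. The widest gap was that of NDUFA10, at 0.44 and −0.07. ATP5F1D, the delta subunit of the ATP synthase, gave −0.00 with the brighter probe and 0.47 with the dimmer one. NDUFV3 lay at 0.14 and 0.39, and ATP5MC1 at −0.00 and 0.23. Other genes had probes close together: UQCRH at 0.20 and 0.18, NDUFB6 at 0.25 and 0.23, ATP5MC2 at 0.19 and 0.16, and ATP5F1A at −0.21 and −0.20.

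**Figure D4:**
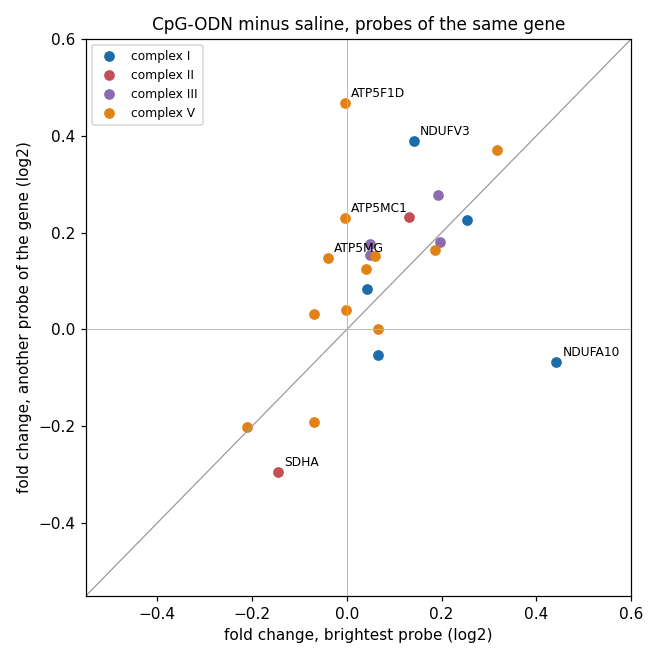
Log2 fold change (CpG-ODN minus saline) of the brightest probe of a gene (horizontal axis) against that of each further tested probe (vertical axis) for the 21 subunit genes with several tested probes, with a line of equality. NDUFA10 (0.44 and −0.07) and ATP5F1D (−0.00 and 0.47) lie farthest from the line.

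Other genes of the pathway did not pass either, with 0 called by limma in each of 4 lists. Assembly factors, which build the complexes, numbered 37 measured, of which 23 were higher, and their median log2 fold change was 0.05. At an unadjusted p under 0.05 they held the complex I assembly factors NDUFAF2 (0.44 ± 0.17, SE) and NDUFAF4 (0.38 ± 0.16), 2 of the 37 (5.41%, against 3.58% of all genes). Carriers and enzymes of ubiquinone synthesis had a median of 0.01 over 17 genes, 10 higher. Cytochrome c (CYCS) lay at 0.07 and the adenine nucleotide carrier SLC25A5 at 0.02. Counted in this list was also CYC1, at 0.10, which encodes the complex III subunit cytochrome c1 and was not taken by the choice of symbols. Regulators and genes of mitochondrial DNA expression had a median of 0.05 over 16 genes, 10 higher, with the transcription factor TFAM at 0.04 and the coactivator PPARGC1A at 0.08. For the 12 measured citric acid cycle genes the median was −0.11, with 10 lower and 2 higher, and citrate synthase (CS) at −0.25 ± 0.16 was their lowest. That lean was small without CpG-ODN 1, at a median of −0.02 with 7 lower and 5 higher. Without CpG-ODN 2 the median of assembly factors was 0.01, with 19 higher and 18 lower, and that of carriers and ubiquinone synthesis was −0.03. Without CpG-ODN 3 that of regulators was −0.00. Carriers and ubiquinone synthesis, the citric acid cycle and regulators held 0 genes with an unadjusted p under 0.05.

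The subunit genes were compared with the ribosomal protein genes, which are also bright on the array. Cytosolic ribosomal proteins had a median log2 fold change of 0.06 over 74 genes, 55 higher, and mitochondrial ribosomal proteins one of 0.09 over 76 genes, 62 higher, where the subunit genes had 0.07 over 71. On CpG-ODN 2 both lists also lay above the saline mean, at medians of 0.14 and 0.26, against 0.21 for the subunit genes. On CpG-ODN 1 they lay at 0.02 and −0.04 and on CpG-ODN 3 at 0.02 and 0.05. The lift on CpG-ODN 2 was therefore not shown to be particular to oxidative phosphorylation. The subunit genes spanned normalized levels from 6.34 to 15.3 with a median of 12.6, where the median of all genes was 8.68.

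**Figure D5:**
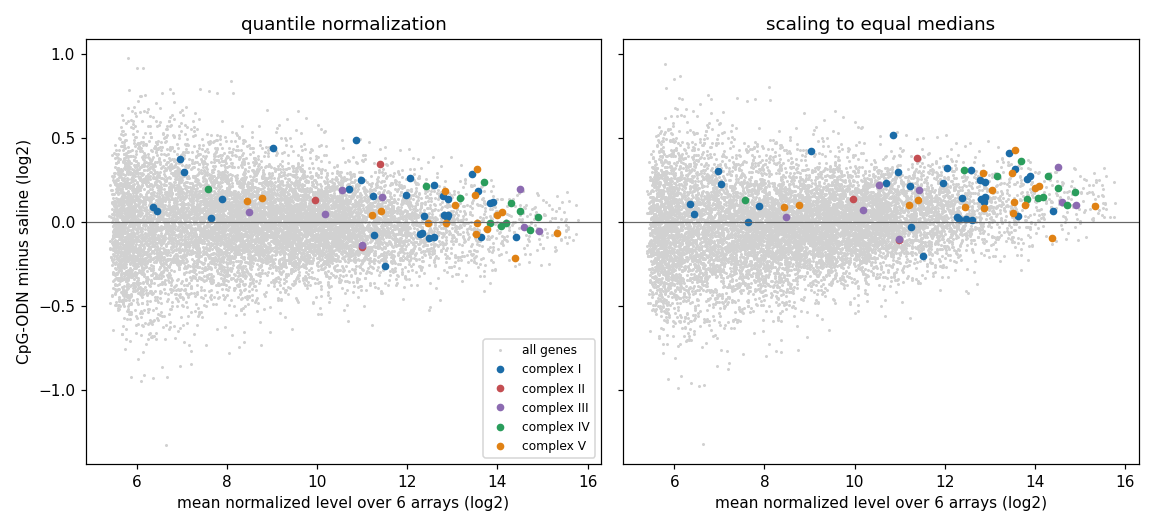
Log2 fold change (CpG-ODN minus saline, vertical axis) against the mean normalized log2 level over 6 arrays (horizontal axis) for all genes in grey and the subunit genes in colour, with quantile normalization on the left and scaling to equal medians on the right. The median of the 71 subunit genes is 0.07 on the left and 0.14 on the right.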

How the data were processed

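Total RNA of 6 samples was measured, 3 saline and 3 CpG-ODN, grouped and numbered by their titles. Per the file headers, the deposited table held a non-normalized intensity and a detection p-value for each probe and array, the authors' own values; the submitters' processing notes name BeadStudio, with no version. A further deposited table held intensities normalized by the authors, on a linear scale; quantile-normalizing the first table matched it to 0.0222 log2 units or less.

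Intensities were background-corrected and quantile normalized by neqc of limma 3.58.1 in R 4.3.3 (offset 16; the detection p-values stood in for negative controls). Probes detected (p under 0.05) on at least 3 of 6 arrays were kept, 17950 of 48803. Platform annotation gave 1 symbol to 28098 probes, several to 13 and none to 20692; 28059 matched RefSeq by gene number. The brightest probe, by its mean over all 6 arrays, stood for a gene, giving 11040 genes. The choice thus used the CpG-ODN values too. These genes were fitted by lmFit and eBayes with group as the sole term and Benjamini-Hochberg adjustment over all of them. The offset draws fold changes of dim probes towards 0, and the number of arrays limits the precision. The test was checked on simulated data. Alternatives were normalization, background, filter, probe choice, weights, prior, the replicate block and each array left out. The members, the lists and the genes to be named (core subunits and tissue forms by name, and in each complex those with the smallest p and the widest gap between probes) were chosen with earlier results of these data known.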

Additional observations from a re-analysis of the deposited data

How the results depend on the processing

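In limma, 0 subunit genes were called in any of the 16 alternatives; over all genes the count was 0 in each except array weights, which gave 76 (48 higher, 28 lower) with a weight of 5.25 for CpG-ODN 3 against 0.244 and 0.335 for the other CpG-ODN arrays. The median log2 fold change of all members ran from 0.01 (without CpG-ODN 2) to 0.14 (equal medians). It moved by less than the spread (SD) between the CpG-ODN arrays, as did those of the 5 complexes. For a CpG-ODN array left out, this cannot show stability, since the same arrays set the spread. Without CpG-ODN 2 the medians of complexes II, III, IV and V turned to −0.07, −0.09, −0.02 and −0.04. Signs of single members were followed in 15 alternatives, leaving out the one that fits every tested probe as a row. Of 1062 such values, 950 kept their sign and 0 passed. In these 15, 28 of 71 members kept it throughout, among them NDUFA10, COX5A, ATP5MF and ATP5F1A. The further probe of NDUFA10 nevertheless lay on the other side, at −0.07. The cause of the turns was not tested. Deviations of arrays that share a replicate number correlated at 0.370, 0.0457 and 0.110; the best match of CpG-ODN 2 was saline 3, at 0.285. The numbers were not taken as pairs. The replicate block left the median of all members at 0.07 and called 0 genes, with 536 at an unadjusted p under 0.05 against 395, and 2 members against 1. The brightness of probes over background limits NDUFS1, NDUFB4 and other dim members.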
